A study of Rattus norvegicus with 18 samples.

Results

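The voltage-gated sodium channel genes of the dorsal root ganglion (DRG) described here were 9 genes, taken by symbol from the 15075 RefSeq identifiers of the mRNA count table. They comprised 6 pore-forming alpha subunits (Scn1a, Scn3a, Scn8a, Scn9a, Scn10a and Scn11a) and 3 auxiliary beta subunits (Scn2b, Scn3b and Scn4b). Each symbol matched 1 identifier, and all 9 passed the filter on low counts in every comparison. Poly(A) RNA was sequenced from C6-C8 DRGs of 18 adult Lister hooded rats, with 6 rats in each of 3 groups. The naïve rats were unoperated and untreated. The bPYX+GFP rats had a bilateral pyramidotomy, which cuts the corticospinal tracts in the medulla, and then unilateral intramuscular forelimb injections of an adeno-associated virus, AAV1-CMV-EGFP. The bPYX+NT3 rats had the same injury and received AAV1-CMV-NT3, which encodes human neurotrophin-3. Ganglia of both injured groups were taken 10 weeks after surgery. The DRGs of the treated side were pooled within each rat and not between rats. The naïve rats had neither surgery nor vector, so effects of the injury and of the vector cannot be told apart in a comparison with them. The CMV promoter is not specific to a cell type, and the surgery cuts axons in the brainstem, not those of DRG neurons.

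Sodium channels open when the membrane depolarises and carry the inward current of the action potential. One alpha subunit forms the pore, and beta subunits associate with it and alter its gating and its placement in the membrane. In sensory ganglia, Scn9a, Scn10a and Scn11a encode NaV1.7, NaV1.8 and NaV1.9, which are known mainly from small-diameter nociceptive neurons. Scn1a and Scn8a encode NaV1.1 and NaV1.6, which are prominent in larger myelinated neurons, and NaV1.6 is the main channel of the mature node of Ranvier. Scn3a encodes NaV1.3, which is abundant in the embryo and is known to return after damage to a peripheral nerve. Neurotrophin-3 is the main ligand of TrkC, a receptor of proprioceptive neurons.

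The libraries held 10057787 to 16002410 read pairs assigned to genes. Groups were taken from the series count table, whose columns carry sample labels and rat numbers. In 17 of 18 cases the title of a sample's own file named another group than the column with identical counts. With the series-table groups, the log2 fold change in bPYX+NT3 versus bPYX+GFP was -2.11 for Adipoq and 1.13 for Sprr1a. The study lists the same values for that comparison, so the series-table groups were used throughout. The comparisons were also made with the groups of the titles, as an alternative only. Rats 57 (bPYX+GFP) and 11 (bPYX+NT3) stood apart in 1 measure of the library. A Dixon outlier test of the sodium channel genes within groups flagged 0 of 27 sets of values. Among the read pairs of rats 57 and 11, 31.7% and 30.8% lay on introns or intergenic sequence (the no-feature share). It was 32.5% to 34.6% in the other rats. All 10 pan-neuronal markers had reads, but Snap25 had only 0 to 7 in a library and was not tested. Their summed level was 10687 to 12951 CPM (read counts scaled to a fixed library total) over the 18 rats. In bulk ganglia, fewer cells of a type and less RNA per cell cannot be told apart.

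No difference of the 9 sodium channel genes between groups passed the test. The edgeR quasi-likelihood test gave 0 of 9 genes a p under 0.05 before adjustment in bPYX+GFP versus naïve, against 3.25% of all 11601 genes tested. The count was 0 of 9 in bPYX+NT3 versus naïve, against 6.01% of 11693 genes, and 0 of 9 in bPYX+NT3 versus bPYX+GFP, against 1.73% of 11623 genes. DESeq2 and the edgeR likelihood ratio test also called 0 of 9 in each comparison, and the groups of the titles gave 0 of 9 as well. After adjustment over all genes, 0% of genes were called in each comparison. The smallest p among the 27 tests was 0.0927 and the smallest adjusted p was 0.607. The 2 groups compared overlapped in all 27 cases.

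In the main fit, the 95% interval of each gene, taken singly, bounded its change in whole ganglia. The largest fitted log2 fold change in either direction was 0.18. The 95% intervals of the 27 fold changes reached from 0.724 at the lowest to 1.35 at the highest, and 24 of 27 lay within a 1.3-fold change either way. The median absolute log2 fold change of the 9 genes was 0.05 in bPYX+GFP versus naïve, where it was 0.06 over all genes tested. It was 0.06 against 0.11 in bPYX+NT3 versus naïve, and 0.05 against 0.10 in bPYX+NT3 versus bPYX+GFP. Intervals of a refit without rat 57 reached further. In bPYX+NT3 versus bPYX+GFP they extended to a log2 fold change of -0.52 for Scn9a and 0.50 for Scn2b.

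**Figure D1:**
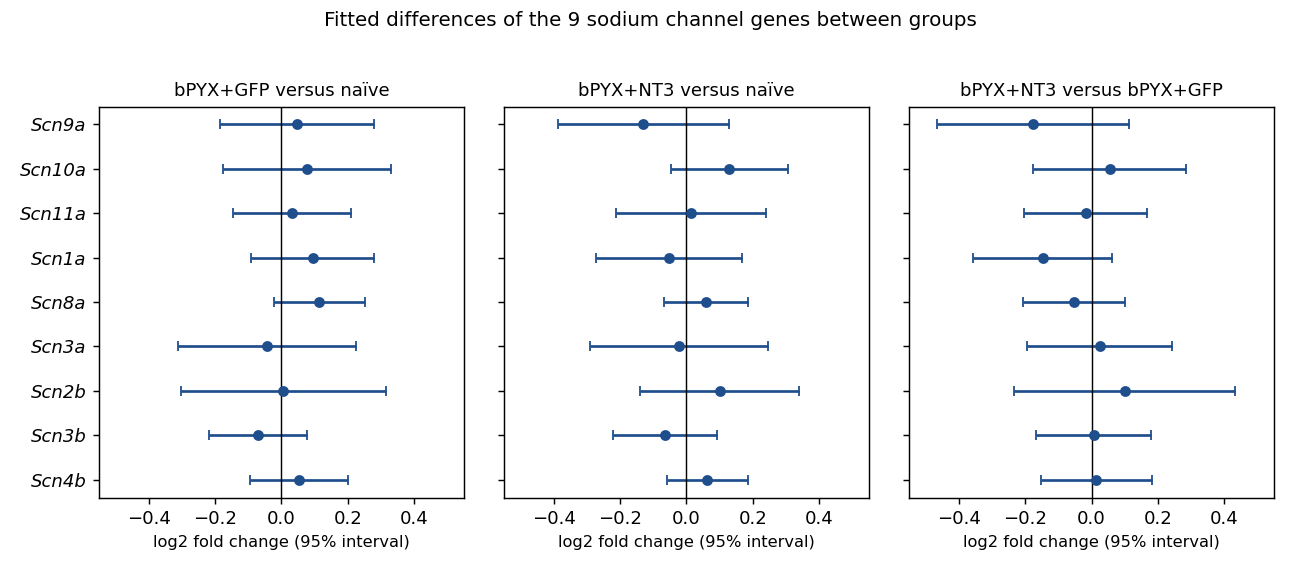
Fitted log2 fold change (horizontal axis) of each sodium channel gene (vertical axis) in the 3 comparisons, with its 95% interval as a bar (6 rats in each group). All 27 intervals include 0 and stay between -0.47 and 0.43.

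The 3 alpha subunits of nociceptors were taken first. Levels below are normalized counts, which are reads scaled to a common library size, and they compare rats within a gene but not genes with each other. Scn9a ranged from 14001 to 18255 in naïve rats with a median of 16500. In bPYX+GFP rats it ranged from 11717 to 19857 with a median of 17339, and in bPYX+NT3 rats from 10300 to 17751 with a median of 14977. The lowest value of each injured group belonged to rat 57 or rat 11, and the 3 groups overlapped. The log2 fold change was 0.05 ± 0.11 (SE) in bPYX+GFP versus naïve (edgeR p = 0.669, exact permutation p = 0.788). It was -0.13 ± 0.12 in bPYX+NT3 versus naïve (edgeR p = 0.298, exact permutation p = 0.307). In bPYX+NT3 versus bPYX+GFP it was -0.18 ± 0.13, the largest of the family, and 5 of 6 bPYX+NT3 rats lay below the bPYX+GFP median (edgeR p = 0.212, exact permutation p = 0.286).

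Scn10a encodes a channel that resists tetrodotoxin and carries much of the upstroke of the nociceptor action potential. It ranged from 4335 to 5851 in naïve rats (median 4935), from 4418 to 7069 in bPYX+GFP rats (median 4864) and from 4698 to 5808 in bPYX+NT3 rats (median 5472). The value of rat 57, 7069, was the highest of the 18, and the next in its group was 5410. The log2 fold change was 0.08 ± 0.12 in bPYX+GFP versus naïve (p = 0.521, exact p = 0.632) and 0.13 ± 0.08 in bPYX+NT3 versus naïve (p = 0.140, exact p = 0.126). In the second of these comparisons 5 of 6 bPYX+NT3 rats lay above the naïve median. In bPYX+NT3 versus bPYX+GFP it was 0.06 ± 0.11 (p = 0.616, exact p = 0.558).

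Scn11a encodes a channel with a persistent current near the resting potential. It lay between 5390 and 7801 in naïve rats (median 6821), between 6431 and 7298 in bPYX+GFP rats (median 6725) and between 5584 and 7695 in bPYX+NT3 rats (median 6842). The bPYX+GFP rats lay inside the range of both other groups. The log2 fold changes were 0.03 ± 0.08, 0.01 ± 0.11 and -0.02 ± 0.09 in the order above, with edgeR p of 0.701, 0.905 and 0.837 and exact permutation p of 0.660, 0.911 and 0.745.

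**Figure D2:**
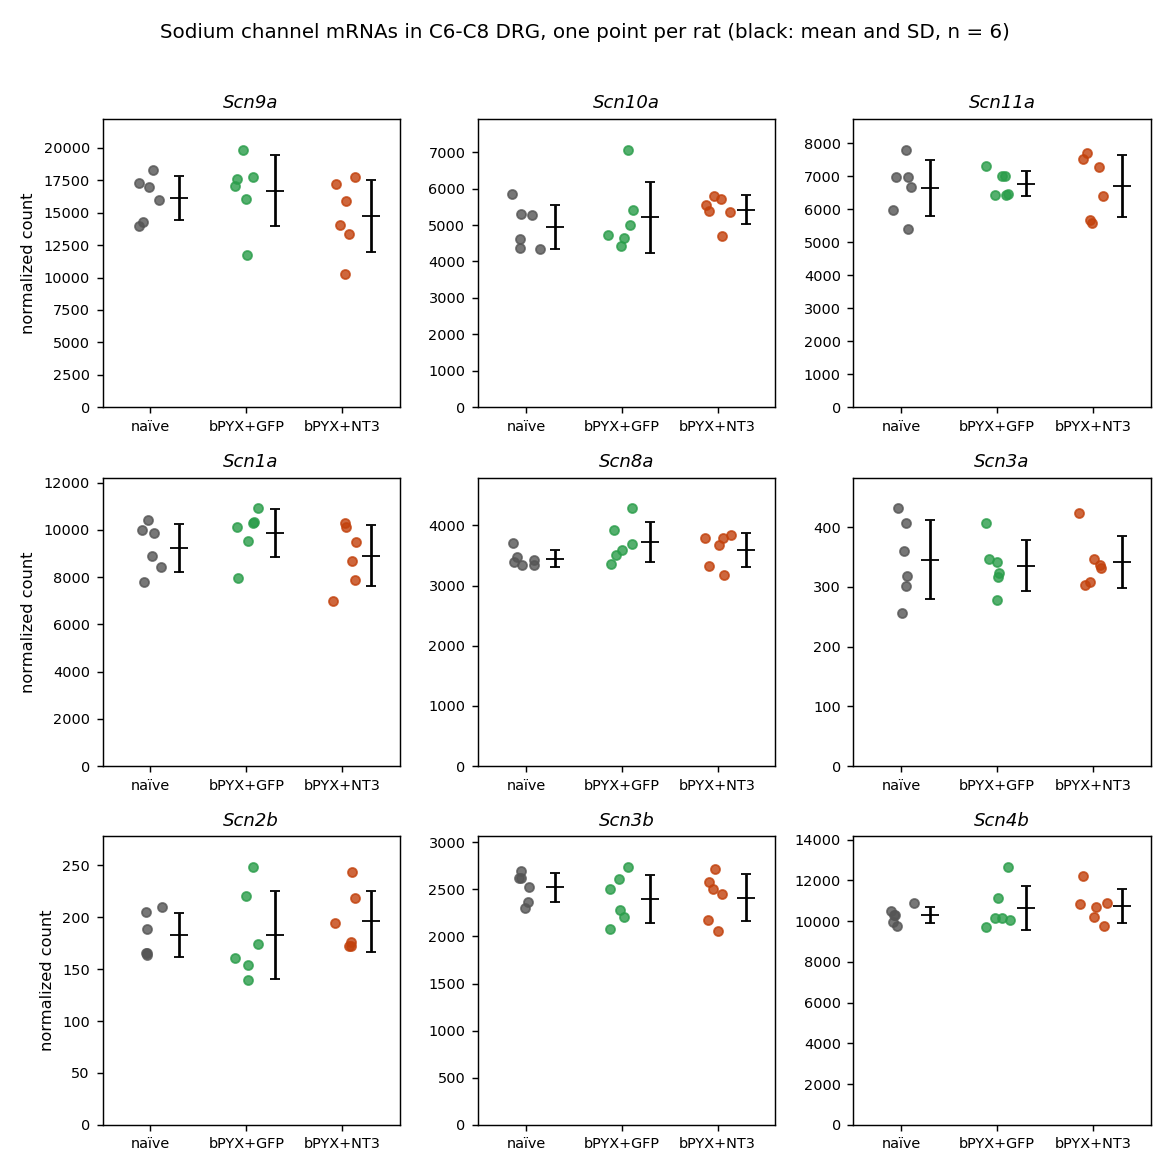
Normalized count (vertical axis, from 0) of each sodium channel gene in the 3 groups, with 1 point for each rat and the mean and SD of 6 rats in black. The groups overlap for all 9 genes, as for Scn9a, where naïve rats lie between 14001 and 18255 and bPYX+NT3 rats between 10300 and 17751.

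Of the 2 alpha subunits of larger neurons, Scn8a came closest to the threshold. In naïve rats Scn8a ranged from 3339 to 3711 (median 3410), in bPYX+GFP rats from 3360 to 4283 (median 3643) and in bPYX+NT3 rats from 3169 to 3835 (median 3729). The naïve rats were tightly grouped, and 5 of 6 bPYX+GFP rats lay above their median. The log2 fold change was 0.11 ± 0.06 in bPYX+GFP versus naïve, a fold change of 1.08 with a 95% interval of 0.985 to 1.19 (edgeR p = 0.0927, exact permutation p = 0.0736). Without rat 18 it was 0.14 ± 0.06 (edgeR p = 0.0357, adjusted p = 1.00, exact permutation p = 0.0260), where 3.58% of all genes had an edgeR p under 0.05. Without rat 57 it was 0.07 ± 0.05 (edgeR p = 0.203, exact permutation p = 0.147), where 5.16% of all genes did. With the groups of the titles it was 0.0088 ± 0.062 (edgeR adjusted p = 0.995). The differences were 0.06 ± 0.06 in bPYX+NT3 versus naïve (p = 0.333, exact p = 0.268) and -0.05 ± 0.07 in bPYX+NT3 versus bPYX+GFP (p = 0.476, exact p = 0.485).

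Scn1a lay between 7802 and 10436 in naïve rats (median 9387), between 7968 and 10912 in bPYX+GFP rats (median 10224) and between 7001 and 10284 in bPYX+NT3 rats (median 9073). As with Scn9a, the lowest values of the injured groups were those of rats 57 and 11. The log2 fold change was 0.10 ± 0.09 in bPYX+GFP versus naïve (p = 0.290, exact p = 0.333), -0.05 ± 0.10 in bPYX+NT3 versus naïve (p = 0.611, exact p = 0.602) and -0.15 ± 0.10 in bPYX+NT3 versus bPYX+GFP (p = 0.155, exact p = 0.182). In the last comparison 5 of 6 bPYX+NT3 rats lay below the bPYX+GFP median.

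Scn3a, the gene of the embryonic channel, had 209 to 560 reads in a library. It ranged from 257 to 431 normalized counts in naïve rats (median 339), from 278 to 406 in bPYX+GFP rats (median 332) and from 303 to 423 in bPYX+NT3 rats (median 334). The naïve rats covered the range of both injured groups. The log2 fold changes were -0.04 ± 0.12, -0.02 ± 0.13 and 0.02 ± 0.10 in the same order, and the smallest edgeR p was 0.734 (exact permutation p = 0.827). In bPYX+GFP versus naïve the 95% interval of the fold change was 0.806 to 1.17.

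The log2 ratio of the summed Scn9a, Scn10a and Scn11a level to the summed Scn1a and Scn8a level was taken in each rat. Levels are not scaled by transcript length, so the ratio compares rats and does not measure a balance of channel classes. Scn9a and Scn1a, with the most reads in each sum, weigh most. The ratio was 1.13 ± 0.05 (SD, n = 6) in naïve rats, with a range of 1.05 to 1.19. It was 1.08 ± 0.05 in bPYX+GFP rats (1.02 to 1.16) and 1.10 ± 0.04 in bPYX+NT3 rats (1.07 to 1.15). The 3 ranges overlapped.

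The beta subunits include Scn4b, which is linked to resurgent current, and Scn2b and Scn3b, which modify channel density and gating. Scn4b ranged from 9782 to 10889 in naïve rats (median 10316), from 9718 to 12647 in bPYX+GFP rats (median 10160) and from 9758 to 12205 in bPYX+NT3 rats (median 10760). The 2 highest values, 12647 and 12205, were those of rats 57 and 11. The log2 fold changes were 0.05 ± 0.07, 0.06 ± 0.06 and 0.01 ± 0.08, with edgeR p of 0.455, 0.284 and 0.857 and exact permutation p of 0.556, 0.242 and 0.805.

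Scn2b was counted at 110 to 311 reads in a library, and its interval was the widest of the family in bPYX+GFP versus naïve and in bPYX+NT3 versus bPYX+GFP. It ranged from 163 to 210 normalized counts in naïve rats (median 177), from 140 to 248 in bPYX+GFP rats (median 167) and from 172 to 244 in bPYX+NT3 rats (median 185). All 6 bPYX+NT3 rats exceeded the bPYX+GFP median, but 2 bPYX+GFP rats reached 220 and 248. That log2 fold change was 0.10 ± 0.15 (p = 0.529, exact p = 0.478), and its fold-change interval ran from 0.851 to 1.35. The changes against naïve were 0.01 ± 0.14 for bPYX+GFP (p = 0.968, exact p = 0.870) and 0.10 ± 0.11 for bPYX+NT3 (p = 0.387, exact p = 0.398).

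Scn3b ranged from 2305 to 2697 in naïve rats (median 2572), from 2076 to 2734 in bPYX+GFP rats (median 2392) and from 2060 to 2713 in bPYX+NT3 rats (median 2478). The naïve range lay within the bPYX+GFP range. The log2 fold changes were -0.07 ± 0.07, -0.06 ± 0.07 and 0.01 ± 0.08, with edgeR p of 0.328, 0.390 and 0.932 and exact permutation p of 0.303, 0.374 and 0.939.

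The 2 rats that stood apart decided part of the comparison of bPYX+NT3 with bPYX+GFP. Without rat 57, 3 of 9 genes had an unadjusted p under 0.05, where 19.8% of all genes were called. Scn10a was then higher in bPYX+NT3 rats by 0.16 ± 0.07 (edgeR p = 0.0346, exact permutation p = 0.0563). Scn1a and Scn9a were lower, at -0.20 ± 0.09 (edgeR p = 0.0485, exact permutation p = 0.0433) and -0.26 ± 0.12 (edgeR p = 0.0477, exact permutation p = 0.0606). The adjusted p was 0.251 for each. Without rat 11 alone, 0 of 9 genes had an unadjusted p under 0.05, where 0.822% of all genes did. The log2 fold change was then -0.09 ± 0.12 for Scn9a (edgeR p = 0.431, exact permutation p = 0.571), -0.09 ± 0.09 for Scn1a (edgeR p = 0.321, exact permutation p = 0.364) and 0.04 ± 0.11 for Scn10a (edgeR p = 0.711, exact permutation p = 0.658). Without both rat 57 and rat 11, a setting chosen after the data were seen, Scn10a (0.16 ± 0.07, edgeR p = 0.0429, exact permutation p = 0.0952) and Scn9a (-0.17 ± 0.08, edgeR p = 0.0478, exact permutation p = 0.111) had an edgeR p under 0.05. So did 12.7% of all genes, and the adjusted p of both was 0.385. In bPYX+NT3 versus naïve, Scn10a passed the unadjusted threshold without naïve rat 43 (0.18 ± 0.08, edgeR p = 0.0322, adjusted p = 0.605, exact permutation p = 0.0346), where 5.46% of genes did.

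The spread between rats exceeded counting error for every member. The coefficient of variation within groups was 15.5% for Scn9a, where counting alone gives 0.803%. It was 7.31% for Scn8a against 1.66%, and 17.2% for Scn2b against 7.39%. The highest rat exceeded the lowest by 1.93-fold for Scn9a and by 1.35-fold for Scn8a.

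Part of this spread was shared between members. Over the 18 rats, log2 CPM of Scn9a and Scn1a rose and fell together (Pearson r = 0.94, Spearman rho = 0.94, permutation p = 1e-05 for each, the smallest that 100000 resamples can give). Scn10a varied with Scn2b (r = 0.83, rho = 0.86, permutation p = 1e-05 and 2e-05) and Scn2b with Scn4b (r = 0.79, rho = 0.71, permutation p = 3e-05 and 0.00129). Scn9a varied opposite to Scn4b (r = -0.79, rho = -0.69, permutation p = 0.00038 and 0.00211) and to Scn2b (r = -0.73, rho = -0.67, permutation p = 0.00056 and 0.00309). Of 45 relations computed, 36 were pairs of members and 9 were relations of a member with the no-feature share described below. Of the 36 pairs, 15 had a Benjamini-Hochberg adjusted permutation p under 0.05 by Pearson r and 9 by Spearman rho, and of the 9 other relations 5 and 3 did. Pairs of other genes were not counted, so it cannot be told whether the 15 of 36 exceed the share among other genes. The adjusted values of the 5 relations named were 0.000112, 0.000112, 0.00027, 0.00244 and 0.0028 by Pearson r and 0.00045, 0.00045, 0.00967, 0.0136 and 0.0154 by Spearman rho. For Scn9a with Scn10a the r was -0.51, with an adjusted permutation p of 0.0698. All values share 1 library and 1 scaling factor in a rat.

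The relation of Scn9a with Scn1a had the same sign within every group (r = 0.95 for naïve, 0.96 for bPYX+GFP and 0.98 for bPYX+NT3) and without the 2 rats farthest from the median of Scn1a (r = 0.94). Scn10a with Scn2b gave r of 0.96, 0.90 and 0.60 in the 3 groups and 0.80 without the 2 farthest rats. Scn2b with Scn4b gave 0.24, 0.91 and 0.84 within the groups and 0.59 without rats 57 and 11. The relation of Scn9a with Scn4b fell to r = -0.46 without those 2 rats, and within groups it was -0.66, -0.91 and -0.76. Scn9a with Scn2b gave r of -0.09, -0.91 and -0.77 within groups and -0.49 without the same 2 rats, so both opposite relations rested in part on them.

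**Figure D3:**
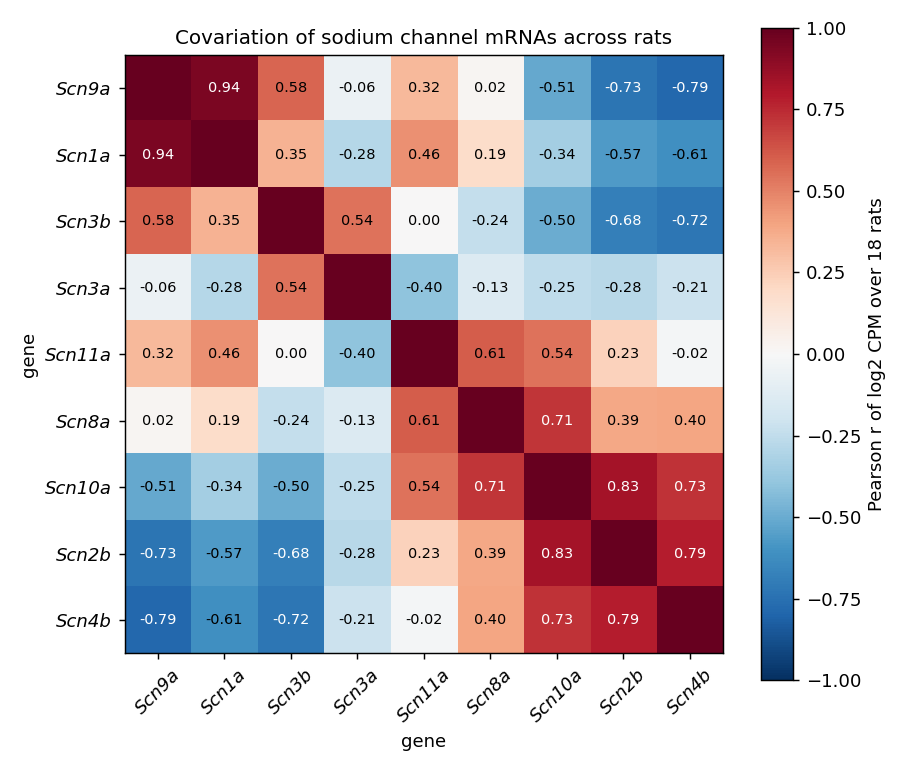
Pearson r of log2 CPM over 18 rats for each pair of sodium channel genes (both axes list the 9 genes), from blue for -1 to red for 1. Scn9a and Scn1a form a pair at 0.94, and Scn10a, Scn2b and Scn4b vary together at 0.73 to 0.83.

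In the RefSeq gene order of the rat, Scn1a is next to Scn9a on chromosome 3 and Scn2b is next to Scn4b on chromosome 8, and both pairs varied together. Scn3a lies on chromosome 3 too, beside Scn2a, and its r with Scn9a was -0.06. The sequences just upstream of the start site are shown for Scn9a, Scn10a, Scn2b and Scn4b, to set their base composition beside their covariation. Of the genes whose relations were given within groups above, only Scn1a is missing, as no promoter was given for it. Scn8a (r = 0.71) and Scn11a (r = 0.54) also varied with Scn10a, and their sequences are not printed. Promoters were given for 7 of the 9 genes in the RefSeq table (build GRCr8). The 120 bases before the start are printed 5′ to 3′ on the gene's strand, with CG dinucleotides in capitals. They are chr3:71701378-71701497 (- strand) for Scn9a, chr8:128340299-128340418 (- strand) for Scn10a, chr8:54322263-54322382 (+ strand) for Scn2b and chr8:54343753-54343872 (+ strand) for Scn4b.
Scn9a: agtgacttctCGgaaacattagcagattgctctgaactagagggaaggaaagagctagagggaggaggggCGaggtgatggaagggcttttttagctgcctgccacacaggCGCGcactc
Scn10a: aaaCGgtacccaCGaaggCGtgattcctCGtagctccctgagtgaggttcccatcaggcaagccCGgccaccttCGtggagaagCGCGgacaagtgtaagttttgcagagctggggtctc
Scn2b: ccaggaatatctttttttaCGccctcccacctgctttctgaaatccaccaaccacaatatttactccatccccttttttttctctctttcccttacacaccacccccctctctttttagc
Scn4b: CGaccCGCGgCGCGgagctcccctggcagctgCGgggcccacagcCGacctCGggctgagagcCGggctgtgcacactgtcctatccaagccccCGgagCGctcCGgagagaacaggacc
The windows of Scn2b and Scn4b, which varied together, held 1 and 12 CG dinucleotides, and those of Scn9a and Scn10a held 4 and 8. Over the full 250 bases upstream, Scn2b held 1 and Scn4b held 21, where the median of 33469 rat promoters was 5. The Scn8a promoter held 53 CG in 250 bases. The GC-box letters GGGCGG, searched on both strands of the 250 bases, were found in Scn8a but not in the other 6, and in 30.5% of all promoters. TATAAA was in none of the 7 and in 12.9% of all promoters.

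The members also varied with the no-feature share, which is the part of a library's read pairs on introns or intergenic sequence. Scn9a rose with it (r = 0.93, rho = 0.85, permutation p = 1e-05 and 3e-05, adjusted p = 0.000112 and 0.00045), as did Scn1a (r = 0.87, rho = 0.79, permutation p = 1e-05 and 0.00021, adjusted p = 0.000112 and 0.00189). Scn4b fell with it (r = -0.86, rho = -0.78, permutation p = 4e-05 and 0.00021, adjusted p = 0.0003 and 0.00189). Without rats 57 and 11 the r was 0.81 for Scn9a, 0.78 for Scn1a and -0.65 for Scn4b. Within naïve, bPYX+GFP and bPYX+NT3 rats it was 0.87, 0.95 and 0.94 for Scn9a, 0.85, 0.94 and 0.88 for Scn1a, and -0.86, -0.92 and -0.90 for Scn4b.

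Such a relation was not particular to sodium channels. Over 11543 genes tested in all comparisons, 67.4% had an r beyond 0.5 in either direction with the no-feature share, and 6 of the 9 sodium channel genes did. The median absolute r was 0.69 over all genes and 0.55 over the 9. Scn9a lay among the 2.43% of genes with the highest r. The mean log2 CPM of the pan-neuronal markers, with the barely counted Snap25 among them, fell with the share (r = -0.88). Since that mean itself fell with the share, levels relative to it shift towards a positive r. On that scale 8 of 9 members had an r above 0, against 4 of 9 before, and Scn4b turned from r = -0.86 to 0.53 and Scn10a from -0.51 to 0.31. With library size alone as the scaling, the r was 0.92 for Scn9a, 0.83 for Scn1a and -0.92 for Scn4b. The part of RNA quality or of cell makeup in this relation was not tested.

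**Figure D4:**
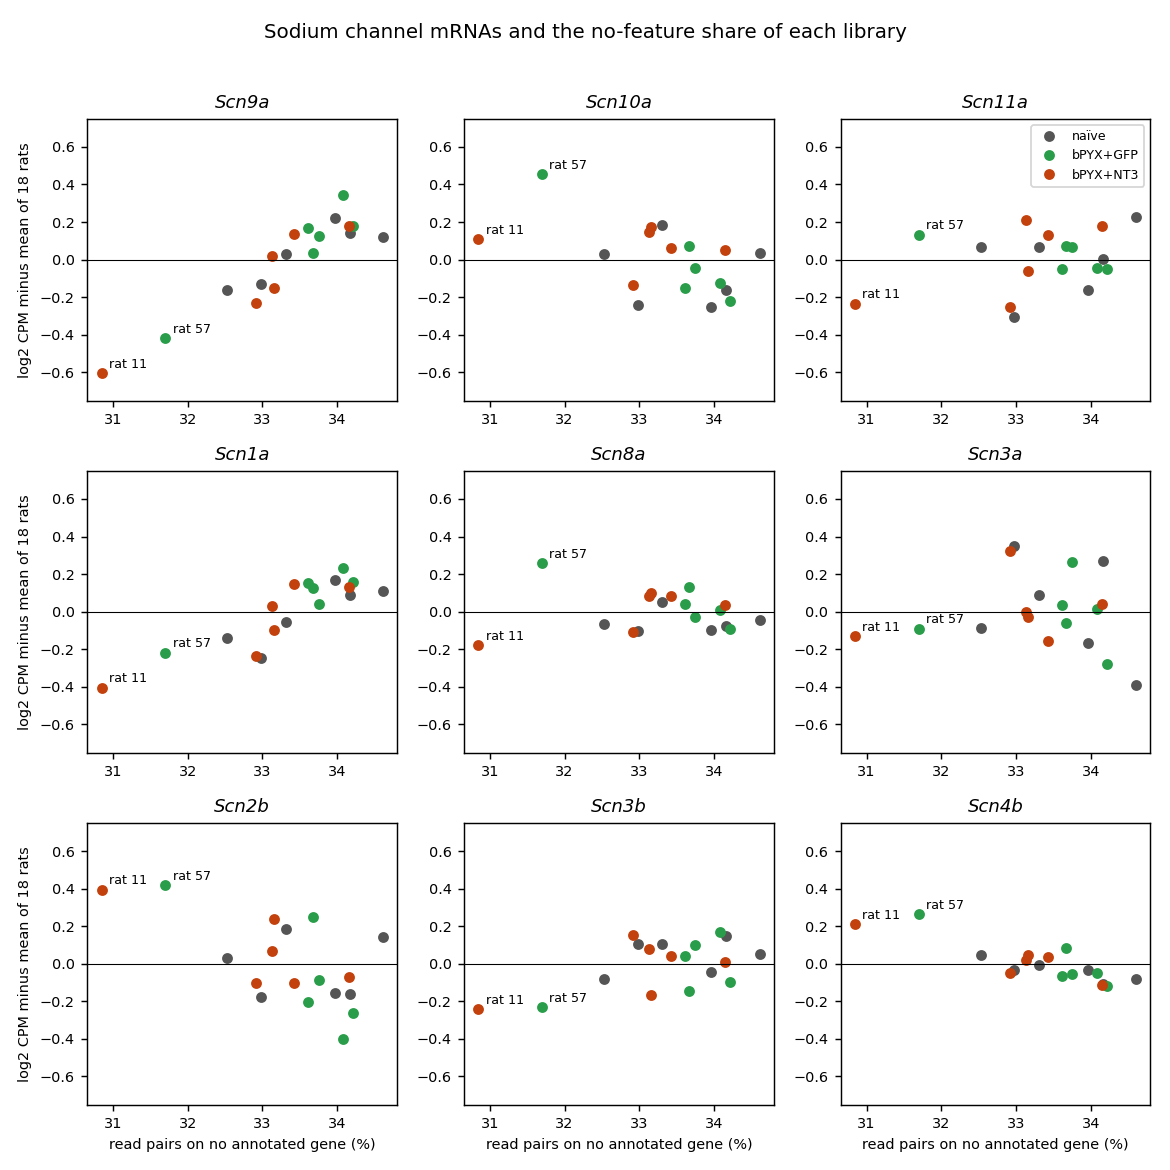
Log2 CPM of each sodium channel gene relative to its mean over 18 rats (vertical axis) against the no-feature share in percent (horizontal axis). The axis label calls it read pairs on no annotated gene, and it holds those on introns or intergenic sequence. Each rat is 1 point coloured by group, and rats 11 and 57 are named. Scn9a and Scn1a rise along the axis (r = 0.93 and 0.87), Scn4b falls (r = -0.86), and Scn8a has an r of -0.03.

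When the no-feature share entered the fit, the SE of Scn9a in bPYX+NT3 versus bPYX+GFP fell from 0.13 to 0.05 and its log2 fold change moved from -0.18 to -0.04 (95% interval -0.15 to 0.07). In bPYX+GFP versus naïve, 2 of 9 genes then passed the unadjusted threshold, where 7.31% of all genes did. These were Scn1a, at 0.11 ± 0.05 (95% interval 0.01 to 0.21, edgeR adjusted p = 0.605), and Scn8a, at 0.10 ± 0.05 (95% interval 0.0018 to 0.21, edgeR adjusted p = 0.676). In the comparisons of bPYX+NT3 with naïve and with bPYX+GFP the same fit called 0 of 9, where it called 4.11% and 1.94% of all genes.

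The genes whose variation was most like that of Scn1a and Scn10a were sought among 8143 genes with a mean of at least 10 CPM, after centring on group means over 18 rats. For Scn1a the nearest included Dnm1l (r = 0.98), a dynamin-related GTPase of mitochondrial fission, an identifier with no symbol matched (NM_001107268, r = 0.98), Spock3 (r = 0.98) and Crbn (r = 0.98), the substrate receptor cereblon. For Scn10a they were Ubash3b (r = 0.95), Abhd2 (r = 0.94), Tanc1 (r = 0.94), Myh10 (r = 0.93), a non-muscle myosin heavy chain, and Fnbp1 (r = 0.93).

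Among other sodium channel genes, none passed the test. Of 6 listed, 2 could be tested, and 0 of 2 had a p under 0.05 in any comparison. Scn2a, which encodes NaV1.2 of central axons, was at 643 ± 42.8 normalized counts in naïve rats (SD, n = 6). It was at 668 ± 78.7 in those with bPYX+GFP and at 622 ± 86.5 in those with bPYX+NT3, and its smallest edgeR p was 0.340 (exact permutation p = 0.379). Scn4a, the channel of skeletal muscle, had 18 to 86 reads in a library, and its smallest edgeR p was 0.671. Scn7a and Nalcn were not analysed here.

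Few genes of channel partners or of the sodium pump passed the test. Of 13 partner genes tested, which include Fgf12 to Fgf14, ankyrin G (Ank3) and contactin 1 (Cntn1), 0 had a p under 0.05 in bPYX+GFP versus naïve or in bPYX+NT3 versus bPYX+GFP. In bPYX+NT3 versus naïve 1 of 13 did, where 3.09% of all genes were higher and 6.01% passed in either direction. This was the neurofascin gene Nfasc, which encodes a cell-adhesion protein of the node and initial segment, at 82.5 ± 17.6 normalized counts in naïve and 106 ± 19.9 in bPYX+NT3 rats (log2 fold change 0.36 ± 0.16, p = 0.0450, adjusted p = 0.607, exact permutation p = 0.0606). Of 8 sodium pump genes, 0 had a p under 0.05 in any comparison, and their median log2 fold changes were 0.09, 0.10 and 0.06.

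No marker of a neuronal class passed the test. Of 9 pan-neuronal, 6 nociceptor and 5 large-fibre markers tested, 0 had an unadjusted p under 0.05 in any comparison. Their summed levels overlapped between groups, with 827 to 1002 CPM for naïve, 890 to 1027 CPM for bPYX+GFP and 877 to 1053 CPM for bPYX+NT3 among the nociceptor markers. For the large-fibre markers they were 3222 to 3770, 3363 to 4500 and 3377 to 4833 CPM. Ret and Nefh, with the most reads, weigh most in the nociceptor and the large-fibre sum. Of 8 nociceptor markers listed 6 were matched, with Calca at 18 to 79 reads in a library. Of 9 large-fibre markers 7 were matched, and Runx3 (0 to 11 reads) and Etv1 (1 to 10 reads) were too low to test. The sums therefore cover only part of the markers of each class.

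Markers of other cells passed the edgeR test, at an unadjusted p under 0.05, in some comparisons, and their log2 fold changes with SE follow. Lower in bPYX+GFP than in naïve rats, where 2.52% of all genes were lower, were 2 of 8 Schwann cell markers (Pmp22, -0.31 ± 0.11, exact permutation p = 0.0238, and Egr2, -0.30 ± 0.12, exact permutation p = 0.0519) and 3 of 5 fibroblast markers. The fibroblast markers were the collagens Col1a1 (-0.49 ± 0.12, exact permutation p = 0.00866) and Col3a1 (-0.35 ± 0.09, exact permutation p = 0.00649), and lumican (Lum, -0.23 ± 0.10, exact permutation p = 0.0693). In bPYX+NT3 versus naïve, where 2.92% of genes were lower, Pmp22 (-0.31 ± 0.09, exact permutation p = 0.00866) was among the Schwann cell markers that were lower. Of 5 fibroblast markers 3 were lower, Col1a1 (-0.34 ± 0.12, exact permutation p = 0.0325), Col3a1 (-0.37 ± 0.13, exact permutation p = 0.0303) and Dcn (-0.28 ± 0.13, exact permutation p = 0.0693). Of 6 endothelial markers 1 was higher, Flt1 (0.28 ± 0.12, exact permutation p = 0.0476). The summed Schwann cell level was 3639 to 5045 CPM in naïve, 3235 to 4088 CPM in bPYX+GFP and 3592 to 4032 CPM in bPYX+NT3 rats.

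In bPYX+NT3 versus bPYX+GFP, 2 of 7 markers of injured neurons were higher, where 1.08% of all genes were. These were Sprr1a (1.13 ± 0.46, exact permutation p = 0.110) and the neuropeptide gene Gal (0.97 ± 0.43, exact permutation p = 0.119). Both had their lowest mean level in bPYX+GFP rats. Mean normalized counts of Sprr1a were 11.7 (bPYX+GFP), 25.3 (naïve) and 25.8 (bPYX+NT3), and those of Gal were 150, 231 and 292. Against naïve rats 0 of 7 passed for either injured group, with median log2 fold changes of -0.39 (bPYX+GFP) and 0.04 (bPYX+NT3). The study lists Sprr1a as changed after injury, at p under 0.05 in its own edgeR fit, and normalized by neurotrophin-3. In the quasi-likelihood test used here Sprr1a did not pass in bPYX+GFP versus naïve. The reason for this difference was not tested. Of 4 satellite glia markers tested, 1 was higher in bPYX+NT3 than in bPYX+GFP rats, Kcnj10 (0.42 ± 0.15, exact permutation p = 0.0260). The median log2 fold change of the 4 was 0.07. Both adipocyte markers tested, Adipoq and Fabp4, were lower in the same comparison (-2.11 ± 0.73 and -2.05 ± 0.79), where 0.654% of all genes were. So was Adipoq in bPYX+NT3 versus naïve (-1.85 ± 0.73). Their exact permutation p was 0.130, 0.141 and 0.214. The summed adipocyte level was 1.90 to 49.8 CPM for naïve, 2.50 to 79.9 CPM for bPYX+GFP and 1.89 to 13.4 CPM for bPYX+NT3. Of 6 macrophage markers 0 passed in any comparison, and of the skeletal muscle markers 0 of 2 passed in bPYX+NT3 versus either group, with none testable in the third comparison. The adjusted p of each marker named here was at least 0.602. The part of these cells in the sodium channel values was not tested.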

How the data were processed

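Members and gene lists were chosen with earlier results of these data known. Poly(A) libraries from C6-C8 DRGs were made with a stranded kit and sequenced as read pairs. Per the labels and methods, the authors aligned them to Rnor_6.0 with TopHat2, removed duplicates with Picard and deposited HTSeq counts per RefSeq identifier (15075 in the series table, 14187 with a symbol matched). The counting's strand setting is not given in the sources used here, so antisense reads cannot be told apart. Removal of duplicates can compress the counts of abundant genes, and read pairs at several locations (21.1% on average) or on several genes (2.95%) were left out, as were those on no feature (33.3%). These classes stayed out of library sizes.

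Genes counted above 10 reads in 6 or more of the 12 rats compared were tested in edgeR 4.0.16 (R 4.3.3; TMM scaling, estimateDisp, glmQLFit and glmQLFTest, two-sided) on the counts as deposited. Each pair of groups was fitted alone, with Benjamini-Hochberg adjustment over all genes. Calls were made at an unadjusted p under 0.05, the threshold of the study. Single genes were also tested by a two-sided exact permutation test of log2 CPM (prior count 2), whose smallest possible p is 0.00216 with 6 rats a group (scipy 1.17.1). The scripts were tested on simulated data. Relations across rats used two-sided permutation tests with 100000 resamples. For a listed gene with several identifiers the one with most reads was used. Named were all 9 members, the other sodium channel genes, listed genes with an unadjusted p under 0.05, and the 5 genes most correlated with Scn10a and with Scn1a. Some genes that this rule names are not reported here. Transcript lengths were not used here, so levels are not compared between genes. DESeq2 1.42.0, other scalings, filters and covariates, the groups of the titles and each rat left out were tried as alternatives. Counting error, at 10057787 to 16002410 read pairs a rat, was below the spread between rats within groups for every member. It came closest to that spread for Scn2b (7.39% against 17.2%) and Scn3a (5.36% against 15.2%).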

Additional observations from a re-analysis of the deposited data

How the results depend on the processing

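The count of sodium channel genes with an unadjusted p under 0.05 stayed at 0 of 9 in each comparison under the likelihood ratio test, DESeq2, DESeq2 size factors, library size alone, no filter, filterByExpr, 1 fit over 3 groups, robust estimation and the groups of the titles. With the no-feature share in the fit it was 2 of 9 in bPYX+GFP versus naïve and 0 of 9 in the other 2 comparisons. With 1 rat left out it ran from 0 to 1 in bPYX+GFP versus naïve (1 without rat 18), from 0 to 1 in bPYX+NT3 versus naïve (1 without rat 43) and from 0 to 3 in bPYX+NT3 versus bPYX+GFP (3 without rat 57). Without both rats 11 and 57, chosen after the data were seen, it was 2. Of 306 log2 fold changes refitted under the other settings, 269 kept their direction and their side of the threshold, 4 gained a p under 0.05 and 33 changed sign. With 1 rat left out, 282 of 324 kept both, 5 gained a p under 0.05 and 37 changed sign. No value that changed sign had a p under 0.05 on either side. With the groups of the titles, the log2 fold change turned to 0.086 for Scn3a, -0.14 for Scn2b, 0.11 for Scn3b and -0.044 for Scn4b in bPYX+GFP versus naïve, to 0.095 for Scn1a, 0.17 for Scn9a, -0.045 for Scn2b, 0.11 for Scn3b and -0.021 for Scn4b in bPYX+NT3 versus naïve, to 0.067 for Scn1a, -0.10 for Scn3a, 0.026 for Scn8a and 0.062 for Scn9a in bPYX+NT3 versus bPYX+GFP. With the no-feature share in the fit, the log2 fold change turned to -0.022 for Scn2b in bPYX+GFP versus naïve, to 0.057 for Scn1a and 0.0018 for Scn9a in bPYX+NT3 versus naïve, to -0.011 for Scn2b and -0.051 for Scn4b in bPYX+NT3 versus bPYX+GFP. Relative to the pan-neuronal list, the log2 fold change turned to -0.028 for Scn9a, -0.025 for Scn11a, -0.088 for Scn2b and -0.019 for Scn4b in bPYX+GFP versus naïve, to -0.062 for Scn8a, -0.11 for Scn11a, -0.027 for Scn2b and -0.058 for Scn4b in bPYX+NT3 versus naïve, to -0.029 for Scn3a, -0.048 for Scn3b and -0.039 for Scn4b in bPYX+NT3 versus bPYX+GFP. With library size alone, the log2 fold change turned to 0.0054 for Scn3a in bPYX+NT3 versus naïve, to 0.012 for Scn11a in bPYX+NT3 versus bPYX+GFP. Without both rats 11 and 57, the log2 fold change turned to 0.027 for Scn8a and 0.050 for Scn11a in bPYX+NT3 versus bPYX+GFP. With 1 rat left out, in bPYX+GFP versus naïve, it ran from -0.035 to 0.13 for Scn10a, from -0.024 to 0.085 for Scn11a, from -0.11 to 0.069 for Scn2b, from -0.11 to 0.027 for Scn3a, from -0.0067 to 0.076 for Scn4b and from -0.0084 to 0.13 for Scn9a. With 1 rat left out, in bPYX+NT3 versus naïve, it ran from -0.038 to 0.069 for Scn11a, from -0.097 to 0.0074 for Scn1a and from -0.094 to 0.053 for Scn3a. With 1 rat left out, in bPYX+NT3 versus bPYX+GFP, it ran from -0.062 to 0.031 for Scn11a, from -0.043 to 0.090 for Scn3a, from -0.031 to 0.046 for Scn3b and from -0.030 to 0.069 for Scn4b. The cause of these changes was not tested. All 27 exact permutation p stayed above 0.05 with a prior count of 0.5. Depth limited Scn2b and Scn3a most, with 110 to 311 and 209 to 560 reads in a library. No paired analysis was possible because the groups hold different rats and the labels do not say whether the numbers in the titles stand for a litter or day. The columns of the series table carry sample labels and rat numbers only.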
